A study of Mus musculus with 8 samples.

Results

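The FOS, JUN and EGR immediate early genes were taken as 10 named rows of the deposited expression table (Fos, Fosb, Fosl1, Fosl2, Jun, Junb, Jund, Egr1, Egr2 and Ier2), and all 10 were found among its 24067 genes. The members were taken by symbol and not by a cut on a measured value, but they were chosen with earlier results of these data known. The cells were articular chondrocytes, the cells that build and keep cartilage, isolated from the knee ends of the femur and tibia (condyles and plateaus) of ICR mice aged 5 days and grown in medium with fetal bovine serum under low oxygen. They received 50 nM of a miR-204 mimic (miR-204) or of a control small RNA (miR-Ctrl) for 24 h and were harvested 24 h after transfection ended. Each group had 4 libraries, numbered 1 to 4 in both groups. Whether the 4 libraries of a group came from different animals or cultures is not in the labels, and the p-values therefore describe the spread among these libraries, part of which may be technical.

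Immediate early genes are transcribed within minutes of a growth factor, serum, stress or mechanical stimulus, without new protein synthesis, and most of their transcripts are short-lived. FOS and JUN proteins pair through leucine zippers to form AP-1, which binds DNA as FOS-JUN or JUN-JUN dimers. AP-1 is known in cartilage for its control of matrix-degrading proteases, while EGR proteins are zinc finger factors induced through serum response factor and its ERK-activated partners.

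The mimic was made after a microRNA whose mature strand is given here because its seed is what was searched for in the members. The RefSeq sequence (GRCm38.p6, chromosome 19, 22750610 to 22750631, plus strand) has the seed, bases 2 to 8, in capitals.
mmu-miR-204-5p: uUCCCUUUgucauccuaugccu

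For 9 members, the longest 3′ UTR in the annotation was scanned for seed matches (GENCODE M21, build GRCm38, which shares its coordinates with mm10). Of these 9, 6 (Fos, Fosb, Fosl1, Jun, Junb and Jund) held no match of 6 bases or more, as was so for 60.5% of the tested genes scanned in the same way. Egr1 held 1 match to the 7 bases of the seed (AAAGGGA), a class that was the best site of 9.46% of the 10704 tested genes whose symbol matched an annotated 3′ UTR. Fosl2 held a match to 6 bases of the seed followed by an A (AAGGGAA, best site of 8.80% of these genes). Ier2 held a 6-base match without that A (AAGGGA, best site of 13.6%). The matches of Fosl2 and Ier2 are printed from the transcript strand, with the match in capitals, since these are the stretches the mimic could pair with. That of Fosl2 lies on chromosome 5 at 32156846 to 32156852 (plus strand) and that of Ier2 on chromosome 8 at 84661875 to 84661880 (minus strand), each within the 3′ UTR.
Fosl2: acagagggtatgggAAGGGAAaggggagaa
Ier2: tccttggcttggagAAGGGAcacctagatc

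Promoter windows, from 250 bases before to 50 after an annotated start, came from RefSeq (GRCm38.p6) and were present for 7 members in 11 windows. Fosl1, Ier2 and Egr1 had no entry. Both strands were searched for the CArG box, the core of the serum response element, for the cyclic AMP response element TGACGTCA and its shorter core TGACGT, for the AP-1 site TGANTCA and for the EGR site GCGNGGGCG. TGACGT lies within TGACGTCA, so the 2 overlap, and it was added after the sequences were seen. These 5 motifs occurred in 1.63%, 1.79%, 7.51%, 7.81% and 5.55% of 32851 windows of 300 bases. Of the members, 4 of 5 Egr2 windows held a CArG box. In 3 of these, which overlap one another, it was the same box (CCATATATGG), and they held TGACGT besides. Fos held TGACGT, Fosb and Fosl2 held GCGNGGGCG, and no member window held TGACGTCA or TGANTCA. The Jund window (chr8:70697489-70697788) ends before the GENCODE start of the gene (70698949), so the promoter at that start was not searched. The Fosl2 window (chr5:32136222-32136521) begins after the GENCODE start of its gene (32135801), so the promoter at that start was not searched either. A match is a run of letters and not a measured binding site. Sequence more than 250 bases before a start was not searched, so a window without a match does not show that the gene lacks the site.

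Windows are printed for Fos and Egr2, which were higher with miR-204 under every replicate number, and for Fosl2, whose level followed the replicate number, with matches in capitals. They lie at chr12:85473640-85473939 (Fos), chr10:67537619-67537918 (Egr2) and chr5:32136222-32136521 (Fosl2), all on the plus strand. Counted from the RefSeq start site of each window, the Fos match begins at −66 and the Fosl2 match at −79. The Egr2 matches begin at −72 (CArG box) and −56 (TGACGT, on the minus strand).
Fos: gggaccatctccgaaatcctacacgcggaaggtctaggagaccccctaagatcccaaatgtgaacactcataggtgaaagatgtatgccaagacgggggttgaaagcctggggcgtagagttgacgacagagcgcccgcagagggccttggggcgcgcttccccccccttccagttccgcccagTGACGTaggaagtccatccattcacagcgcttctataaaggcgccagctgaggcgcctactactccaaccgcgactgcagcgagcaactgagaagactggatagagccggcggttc
Egr2: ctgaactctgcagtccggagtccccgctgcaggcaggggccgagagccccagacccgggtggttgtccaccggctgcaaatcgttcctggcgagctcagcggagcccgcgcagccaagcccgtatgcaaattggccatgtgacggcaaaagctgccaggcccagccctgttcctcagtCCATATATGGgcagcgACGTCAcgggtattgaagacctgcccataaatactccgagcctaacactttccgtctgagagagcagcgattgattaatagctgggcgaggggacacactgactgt
Fosl2: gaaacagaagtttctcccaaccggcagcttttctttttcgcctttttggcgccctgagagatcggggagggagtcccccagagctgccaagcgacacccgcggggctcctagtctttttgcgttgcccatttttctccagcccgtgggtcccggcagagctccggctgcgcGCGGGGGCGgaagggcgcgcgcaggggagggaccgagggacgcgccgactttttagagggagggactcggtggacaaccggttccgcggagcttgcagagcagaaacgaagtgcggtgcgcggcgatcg

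Chondrocyte markers were high in every library, with Col2a1, the main cartilage collagen, between 7836 and 27530 FPKM (FPKM are fragment counts scaled to transcript length and to the mapped fragments of the library). Endothelial markers were near 0, with all 5 summing to at most 0.440 FPKM in a library. The leukocyte marker Ptprc was at most 0.0309 FPKM, but Lyz2 and Cd14 of the same list reached 11.1 and 9.80 FPKM. The 4 osteoblast markers summed to 5.22 to 22.8 FPKM with miR-Ctrl and to 7.05 to 23.6 FPKM with miR-204. The 6 fibroblast markers summed to 1565 to 3318 FPKM with miR-Ctrl and to 1507 to 3475 FPKM with miR-204, led by the collagen I gene Col1a1 (685 to 1524 FPKM). The replicate 2 libraries stood apart in both groups: Saa3, an acute-phase protein gene, was at 26618 and 16455 FPKM there and at 17.9 to 225 FPKM elsewhere. Of 6 genes used as a check of the transfection, Ak4 (−1.32), Slc39a11 (−1.24), Hapln1 (−1.04), Rab22a (−0.93), Mlec (−0.87) and Tgfbr2 (−0.76 on the log2 scale) were lower with the mimic in 4 of 4 pairs. By limma 4 of them fell without the replicate number and 6 with it; the list was chosen with earlier results of these data known.

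Because FPKM is scaled to transcript length, levels can be set against each other between genes. Jund, the JUN protein least tied to induction, was highest, at 39.7 ± 3.57 FPKM (mean ± SD over all 8 libraries). Fosl2 (20.2 ± 10.5), Junb (19.6 ± 10.7), Jun (16.6 ± 4.22), Ier2 (15 ± 2.67) and Egr1 (13.5 ± 4.35) followed. Fos (2.29 ± 0.599), Fosl1 (0.948 ± 0.446), Egr2 (0.629 ± 0.290) and Fosb (0.293 ± 0.0704) were far lower.

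The gap between Egr1 and Fos was the only one between neighbours in this order where the ranges over 8 libraries did not overlap. Jund was above Fosl2, Fos above Fosl1, and Egr2 above Fosb in 8 of 8 libraries even though their ranges over libraries overlapped. Fosl2, Junb, Jun, Ier2 and Egr1 changed places from library to library. Fosl2 and Jund were the most abundant FOS and JUN family transcripts on average, while Fos and Fosb, which are acutely induced in many cells, were low.

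**Figure D1:**
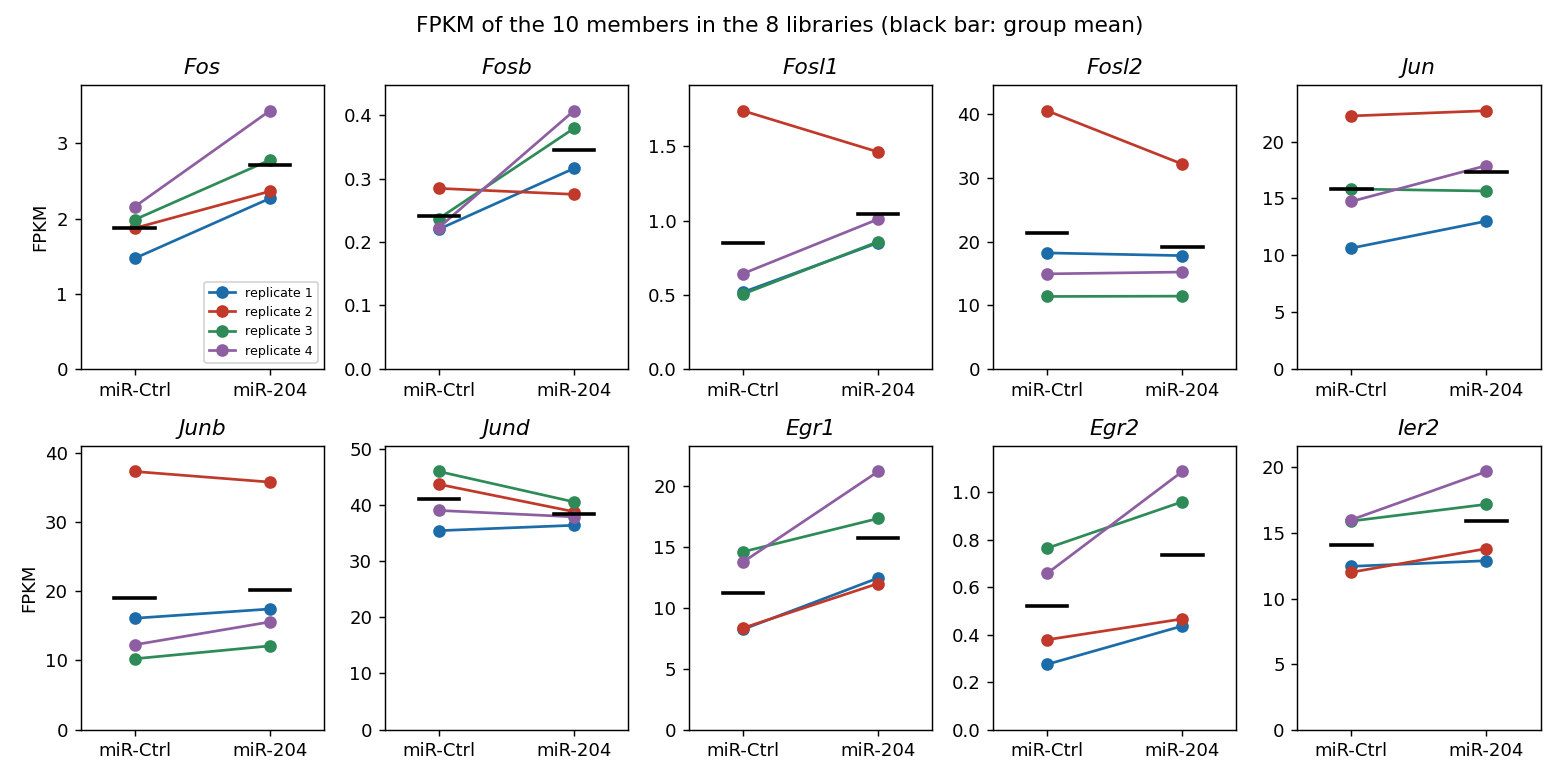
FPKM of each of the 10 members (vertical axes, each from 0) in the 4 miR-Ctrl and 4 miR-204 libraries. Lines join libraries of equal replicate number and black bars are group means. All 4 lines rise for Fos, Egr1, Egr2 and Ier2, and replicate 2 lies far above the others for Fosl2, Junb and Fosl1.

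The question of the design was which transcripts differ after the miR-204 mimic. Fos and Egr1 were higher with miR-204 in every pair of equal replicate number, by 1.45 and 1.4 times between the group means, and both rose once the replicate number was taken into account. No other tested member passed that test. Without the replicate number no member passed in either direction by limma: 0 of 7 tested members were called higher and 0 lower, against 0.0258% and 0.181% of all 11612 tested genes. Counted by unadjusted p under 0.05, 1 member (Fos) was higher and 0 were lower, against 6.57% and 2.02% of all tested genes. Genes were tested where the mean reached 1 FPKM, so Fosb, Fosl1 and Egr2 have values and no test in either of these fits.

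The replicate number paired the libraries (see the processing), and limma with that number as a block called 2 of 7 members higher and 0 lower, against 12.4% and 2.83% of all tested genes. With the libraries centred on their median the same count was 2 and 0, against 4.99% and 4.32%, and it was 2 and 0 also with quantile normalization, against 4.78% and 4.62%. Higher in all 4 pairs were 3 of the 7 tested members (Fos, Egr1 and Ier2), against 33.9% of all tested genes, and 0 were lower in all 4, against 7.44%, so the first pattern was common in the table. The median log2 fold change was 0.15 over the 7 tested members and 0.064 over all tested genes.

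Among the FOS family, Fos encodes the partner of JUN that gave AP-1 its best known form. It was at 1.47, 1.87, 1.98 and 2.16 FPKM in miR-Ctrl replicates 1 to 4 and at 2.27, 2.36, 2.78 and 3.43 FPKM in miR-204 replicates 1 to 4. Every miR-204 library lay above every miR-Ctrl library, a lack of overlap in the higher direction that 4.32% of all tested genes shared. No tested member lay wholly below, as 1.58% of all tested genes did. The log2 fold change was 0.37 ± 0.12 (SE) without the block, with an adjusted p of 0.441 by limma. With the block the SE was 0.059 and the adjusted p 0.0161. Within pairs 1 to 4 the difference was 0.40, 0.23, 0.34 and 0.49 on the log2(FPKM + 1) scale.

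Fosb, which like Fos is quick to rise after a stimulus, was at 0.220, 0.285, 0.237 and 0.223 FPKM with miR-Ctrl and at 0.316, 0.275, 0.379 and 0.407 FPKM with miR-204. It was higher in 3 of 4 pairs, and replicate 2 was the exception. These values rest on few reads: steps between low FPKM values put Fosb at about 31 to 57 fragments per library, where counting error alone is about 18.0% at the lower end. In a fit without the filter on low values its adjusted p was 0.451, and 0.153 with the block.

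Fosl1, a FOS family member without the strong activation domain of Fos, was at 0.517, 1.74, 0.504 and 0.642 FPKM with miR-Ctrl and at 0.851, 1.46, 0.858 and 1.01 FPKM with miR-204. It was higher by 1.57 to 1.70 times in pairs 1, 3 and 4, and at 0.840 times in pair 2, the pair with the highest level. About 32 to 92 fragments per library stood behind these values. Without the filter the adjusted p was 0.898, and 0.299 with the block.

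Fosl2 is the FOS family member most often found in unstimulated cells. It was at 18.2, 40.5, 11.4 and 14.9 FPKM with miR-Ctrl and at 17.8, 32.2, 11.4 and 15.2 FPKM with miR-204. Its level followed the replicate number: the log2 difference between the groups was −0.032, 0.0058 and 0.025 in pairs 1, 3 and 4, and −0.32 in pair 2. The log2 fold change was −0.081 ± 0.42 (adjusted p = 0.984 by limma, and 0.411 with the block). Without both replicate 2 libraries, and with the block, it was −2.80e-04. Fosl2, which holds the shorter seed match with a trailing A (AAGGGAA), passed the test in neither direction.

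**Figure D2:**
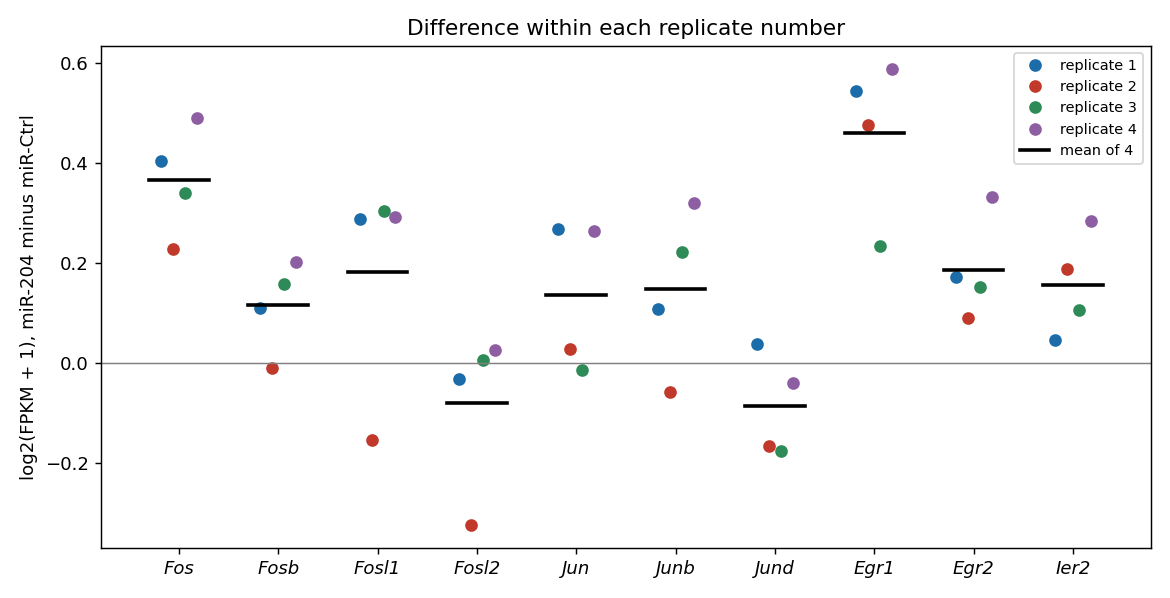
Difference in log2(FPKM + 1) between the miR-204 and the miR-Ctrl library of each replicate number (vertical axis) for the 10 members, with the mean of 4 as a black line. Fos, Egr1, Egr2 and Ier2 lie above 0 in all 4 pairs, and replicate 2 gives the lowest difference of Fos, Fosb, Fosl1, Fosl2, Junb and Egr2.

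Of the JUN family, Jun, which forms AP-1 both with FOS proteins and with itself, was at 10.6, 22.3, 15.8 and 14.7 FPKM with miR-Ctrl and at 13.0, 22.7, 15.7 and 17.9 FPKM with miR-204. The groups overlapped widely, since replicate 2 was highest and replicate 1 lowest in both. The log2 fold change was 0.14 ± 0.23 (adjusted p = 0.916 by limma, 0.165 with the block), and it was 0.27 and 0.26 in pairs 1 and 4 but 0.028 and −0.015 in pairs 2 and 3.

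Junb, known as a brake on Jun activity in many settings, was at 16.1, 37.3, 10.2 and 12.3 FPKM with miR-Ctrl and at 17.4, 35.8, 12.1 and 15.6 FPKM with miR-204. Pairs 1, 3 and 4 were higher with miR-204 by 1.08, 1.18 and 1.27 times, and pair 2 was at 0.959 times. The log2 fold change was 0.15 ± 0.44 (adjusted p = 0.966 by limma, 0.156 with the block). Without both replicate 2 libraries the blocked fit called Junb higher (0.22 ± 0.050, adjusted p = 0.0286 by limma), which made 3 of 7 members called higher there, and 0 lower, against 23.9% and 4.5% of all tested genes.

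Jund, whose protein is present in resting cells, was at 35.4, 43.7, 45.9 and 39.0 FPKM with miR-Ctrl and at 36.4, 38.8, 40.5 and 37.9 FPKM with miR-204. It was lower with miR-204 in 3 of 4 pairs, with a log2 fold change of −0.087 ± 0.086 (adjusted p = 0.830 by limma, 0.239 with the block). It had the narrowest relative spread of the members between replicate numbers after Fosb, at 1.20 times from the lowest to the highest pair mean.

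Egr1, a zinc finger factor whose induction follows ERK activity, was at 8.22, 8.33, 14.6 and 13.7 FPKM with miR-Ctrl and at 12.4, 12, 17.3 and 21.2 FPKM with miR-204. The groups overlapped, and in each group replicates 1 and 2 were lower than replicates 3 and 4. Within pairs the difference was 0.54, 0.48, 0.23 and 0.59, with the largest mean of the 10 members on the log2(FPKM + 1) scale. This rank depended on the scale, which understates changes of low genes. With a pseudocount of 0.1 Fos was at 0.51 and Egr1 at 0.49. The ratio of group means was 1.45 for Fos, 1.43 for Fosb and 1.42 for Egr2, against 1.4 for Egr1. The log2 fold change of Egr1 was 0.46 ± 0.24 (adjusted p = 0.653 by limma). With the block the SE was 0.063 and the adjusted p 0.0113. Egr1, which rose in the blocked fit, is the member with the 7-base seed match AAAGGGA.

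Egr2, a close relative of Egr1, was at 0.275, 0.379, 0.765 and 0.659 FPKM with miR-Ctrl and at 0.437, 0.467, 0.960 and 1.09 FPKM with miR-204. As for Egr1, replicates 3 and 4 were the higher ones in each group, and the values rest on about 31 to 117 fragments per library. Pairs were higher with miR-204 by 1.59, 1.23, 1.26 and 1.65 times. Without the filter on low values its adjusted p was 0.891 by limma, and 0.0898 with the block.

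Ier2, a small nuclear protein of the same early response, was at 12.5, 12, 15.9 and 16.0 FPKM with miR-Ctrl and at 12.9, 13.8, 17.2 and 19.7 FPKM with miR-204. It was higher in 4 of 4 pairs, but by only 1.03 to 1.23 times. The log2 fold change was 0.16 ± 0.15 (adjusted p = 0.827 by limma, 0.0737 with the block).

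The calls of Fos and Egr1 did not hold in every blocked fit that left out 1 pair. The number of all genes called higher also moved in these fits, from 1436 to 89, 2781, 236 and 42 without replicates 1 to 4. The unadjusted p of both genes was at most 0.0046 by limma in the 4 fits. Without both libraries of replicate 1 the blocked adjusted p was 0.0807 for Fos and 0.0684 for Egr1, and without replicate 4 it was 0.0961 and 0.0791. Without replicate 3 it was 0.0616 and 0.0207, and without replicate 2 it was 0.00845 and 0.012. The fold changes themselves stayed between 0.32 and 0.41 for Fos and between 0.42 and 0.54 for Egr1 in these 4 fits. With the block and all 8 libraries, 2 of 6 fibroblast markers (Dpt, 0.69, and Thy1, 0.42) also rose, against 12.4% of all tested genes. Of 8 chondrocyte markers 2 fell (Hapln1, −1.04, and Comp, −0.17), against 2.83%, and Hapln1 is also a gene of the transfection check. The log2 fold change was above 0 for 4 of 6 fibroblast and 2 of 8 chondrocyte markers. The part of these markers in the members' differences was not tested.

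Most of the members' variation lay between replicate numbers and not between the transfections. Of the sum of squares of log2(FPKM + 1) over the 8 libraries, the replicate number held 98.1% for Fosl2, 97.3% for Junb and 91.6% for Jun. It held 83.5% for Ier2, 81.0% for Egr2, 79.5% for Fosl1, 71.3% for Jund and 65.6% for Egr1, beside a median of 73.6% over all tested genes. Jund and Egr1 thus lay somewhat below that median, and Fos (37.4%) and Fosb (7.98%) far below it. The transfection held 58.5% for Fos, 62.1% for Fosb and 31.6% for Egr1, beside a median of 10.2%, and at most 15.5% for the other 7. Fosb is the least precise of these, as its few fragments add counting error to the rest.

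**Figure D3:**
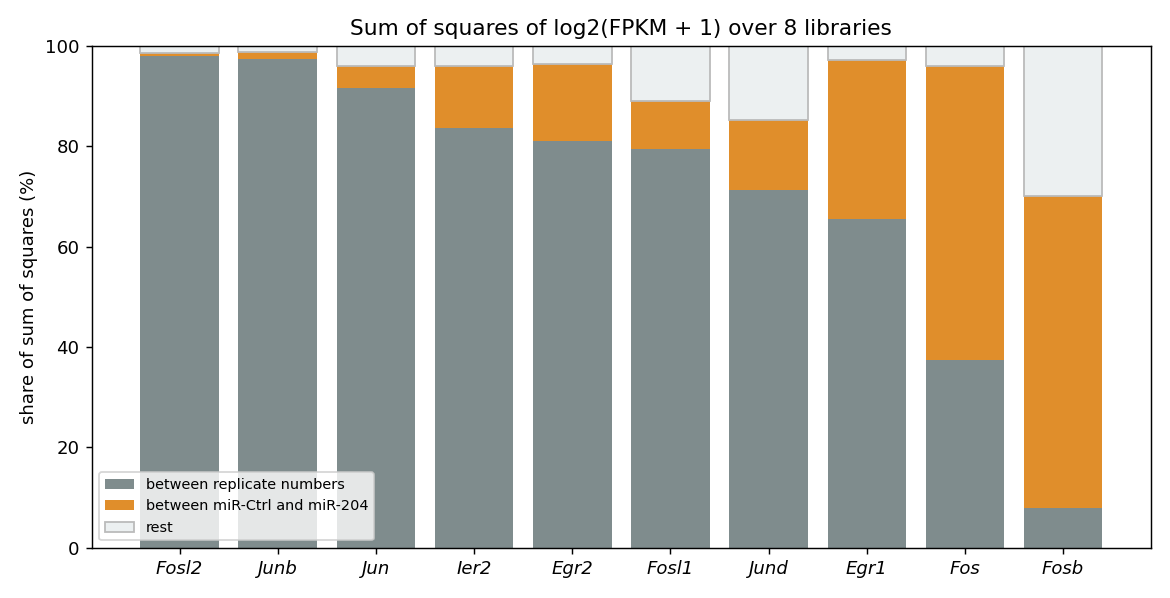
Share of the sum of squares of log2(FPKM + 1) over 8 libraries (vertical axis, %) that lay between replicate numbers, between the 2 groups, and in the rest, for each member. The part between groups is 58.5% for Fos and 0.475% for Fosl2.

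Members fell into sets by how they varied across replicate numbers. Fosl2, Junb, Fosl1 and Jun were highest in replicate 2 of both groups. From the lowest to the highest pair mean, Junb spanned 3.27 times, Fosl2 3.19 times, Fosl1 2.35 times and Jun 1.90 times. Mmp13, a collagenase known as an AP-1 target, was at 1628 and 908 FPKM in these 2 libraries and at 3.66 to 54.8 FPKM in the other 6. Il6, an inflammatory cytokine gene, was at 6.24 and 4.07 FPKM there and at 0 to 0.205 FPKM elsewhere. Cartilage markers went the other way, with Acan, the aggrecan core protein, at 386 and 407 FPKM there and at 959 to 1710 FPKM elsewhere. The same 2 libraries were the shallowest, at 0.772 and 0.798 of the depth of miR-Ctrl replicate 1. The part of any of these in the members' levels was not tested, and in bulk RNA fewer cells of a type cannot be told apart from less RNA per cell.

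Egr1, Egr2 and Ier2 had another order, with replicates 3 and 4 above replicates 1 and 2 in both groups. The pair means of Egr2 spanned 2.45 times, those of Egr1 1.72 times and those of Ier2 1.41 times. The 5 matched macrophage markers of 6 listed summed to 3.68 to 7.56 FPKM in replicates 3 and 4 and to 12.2 to 19.5 FPKM in replicates 1 and 2. Nearly all of this sum was Lyz2 (2.55 to 11.1 FPKM over the 8 libraries) and Cd14 (1.02 to 9.80 FPKM). The sum ran opposite to these 3 members, and the part of these markers was not tested. The defining marker Csf1r was at most 0.193 FPKM in any library, and Ptprc was listed at 0 in miR-204 replicate 3. By group the sum was 3.68 to 19.5 FPKM with miR-Ctrl and 6.69 to 17.4 FPKM with miR-204.

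**Figure D4:**
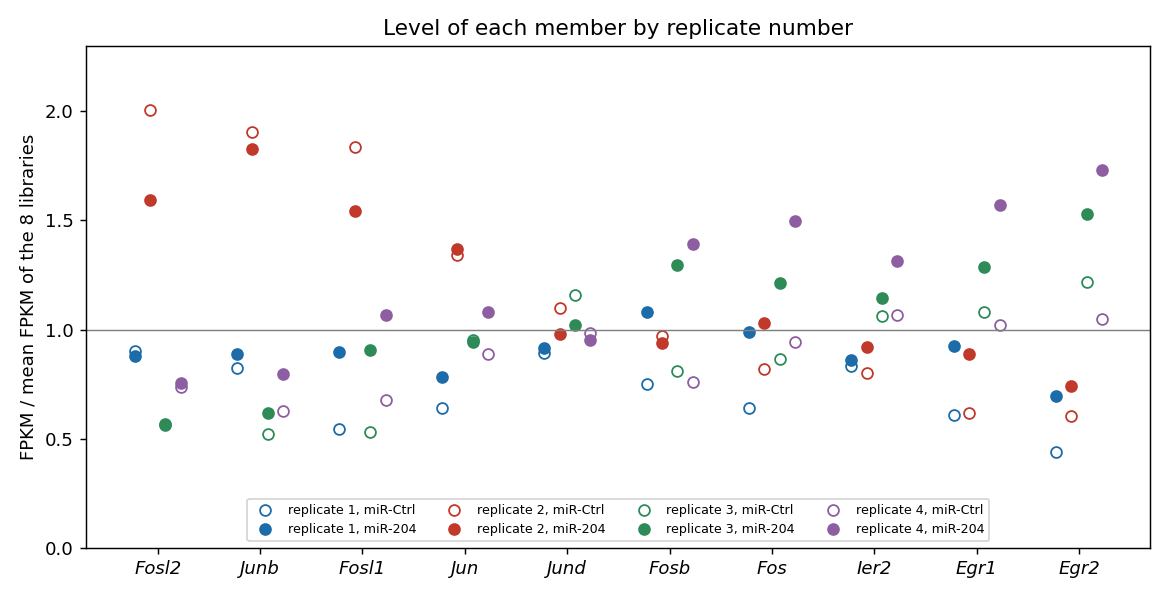
FPKM of each member divided by its mean over the 8 libraries (vertical axis, linear), by replicate number (colour) in miR-Ctrl (open) and miR-204 (filled) libraries. Replicate 2 is highest for Fosl2, Junb, Fosl1 and Jun, and replicates 3 and 4 are highest for Ier2, Egr1 and Egr2.

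Pairs of members differed in how closely they tracked each other over the 8 libraries, which come as 4 pairs and are not independent. Pearson's r of log2(FPKM + 1) was highest for Fosl2 with Junb (0.98) and for Egr2 with Ier2 (0.97), and lowest for Fosl2 with Ier2 (−0.67). Jun was nearly unrelated to Egr1 over all 8 libraries (0.10), but over the 6 libraries outside replicate 2 their r was 0.97. Conversely, Fosl1 with Fosl2 went from 0.83 to 0.052 and Jun with Junb from 0.66 to −0.46 without replicate 2, so these resemblances rested on that pair. Fosl2 with Junb (0.89), Egr2 with Ier2 (0.97) and Fos with Egr1 (0.94, against 0.89 over all 8) stayed high.

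**Figure D5:**
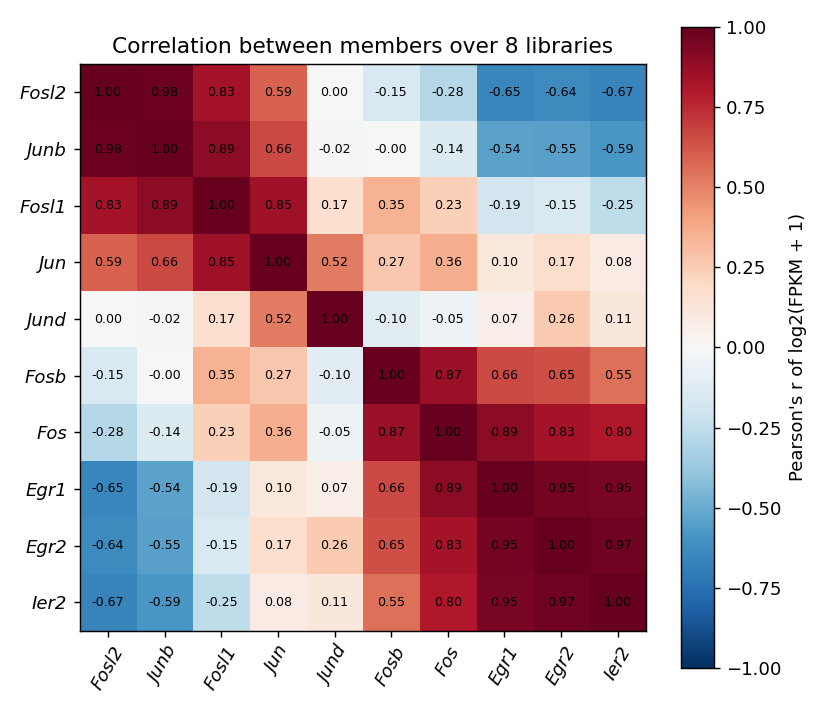
Pearson's r of log2(FPKM + 1) over the 8 libraries for each pair of members (colour and printed value). Fosl2, Junb, Fosl1 and Jun form a block with r of 0.59 to 0.98, and Fos, Egr1, Egr2 and Ier2 another with r of 0.80 to 0.97. The first block did not hold without replicate 2 (not drawn), where its r ran from −0.65 (Fosl2 with Jun) to 0.89 (Fosl2 with Junb).

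Among 11605 other tested genes, those most like Fos over the 8 libraries were Spata13 (r = 0.99), Itprip (0.97) and Fopnl (0.95). For Egr1 they were Nfatc1, Agbl5 and Card10 (each 0.97), and for Jun they were Rffl (0.99), Csrp2 (0.98) and Kctd20 (0.98). Junb was most like Sav1 (0.998), P2rx4 (0.997) and Rnd1 (0.995). A resemblance to Junb was common, as 1245 genes (10.7%) had an r of at least 0.9 with it, against 134 for Jun, 83 for Egr1 and 64 for Fos.

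Other genes of the pathway were counted from lists chosen with earlier results of these data known. The counts of every list stand beside 12.4% of all tested genes higher and 2.83% lower with the block, and 4.99% and 4.32% with the block and centred libraries. Of 31 other immediate early genes 28 were tested, and without the block 0 were higher and 1 was lower by limma (by unadjusted p under 0.05, 1 and 1). That gene was Klf2, a transcription factor of the Krüppel family, which fell from 9.87 ± 1.13 to 5.31 ± 0.369 FPKM (mean ± SD, n = 4; log2 fold change −0.78, adjusted p = 0.0213 by limma). With the block 7 rose and Klf2 fell, and with centred libraries 2 rose, Sgk1 and Cyr61 (the latter chosen after its values were seen). Arc, an early gene best known from neurons, went from 0.70 ± 0.154 to 1.54 ± 0.753 FPKM (0.54, blocked adjusted p = 0.0362, and 0.0582 with centred libraries). Sgk1, a serum-induced kinase, went from 23.7 ± 5.74 to 29.3 ± 5.14 FPKM (0.30, blocked adjusted p = 0.0141). The list's median was 0.12, beside 0.064 for all tested genes.

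Genes that report ERK activity were the next group, of which 10 of 16 were tested and 0 passed without the block by limma (0 at an unadjusted p under 0.05 also). With the block 2 rose and 0 fell. Dusp6, a phosphatase that ERK induces and that switches ERK off, went from 3.83 ± 1.32 to 5.93 ± 2.16 FPKM (0.52, blocked adjusted p = 0.0305). With centred libraries its blocked adjusted p was 0.0458, and with quantile normalization it did not pass (0.0515). Ccnd1, which encodes cyclin D1, went from 35.4 ± 12.3 to 42.8 ± 15.5 FPKM (0.27, blocked adjusted p = 0.0191). The list's median was 0.23.

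Of 16 tested MAP kinases and upstream kinases 0 passed without the block by limma (2 higher and 1 lower at an unadjusted p under 0.05). With the block 3 rose and 1 fell, of which the 3 with the largest changes are named. Rps6ka1, a kinase downstream of ERK, was at 0.31 (blocked adjusted p = 0.0128), and Map2k3, which activates p38, at 0.22 (0.0362). Mapk8, which encodes the JUN kinase JNK1, was at −0.22 (0.0290). Map2k3 did not pass with centred libraries (0.0838), where 1 rose and 1 fell. The list's median was 0.067.

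Of 12 factors that act on immediate early promoters, Elk3, an ERK-responsive partner of serum response factor, rose with the block (0.33, adjusted p = 0.0193 by limma), and 0 of 12 passed without it (0 at an unadjusted p under 0.05). Of 12 tested bZIP partners of FOS and JUN 0 passed in either fit by limma, with 0 higher and 1 lower at an unadjusted p under 0.05 without the block. The most abundant of them, Atf4, was at 357 ± 51.6 and 369 ± 52.1 FPKM. With centred libraries 2 bZIP partners were lower. Of 3 tested EGR cofactors, the corepressor gene Nab1 rose with the block (0.24, adjusted p = 0.0302) but not with centred libraries (0.0623). The medians of these 3 lists were 0.023, −0.033 and 0.13.

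Genes with well known AP-1 control included 14 tested of 15, and 0 passed without the block by limma (1 higher and 0 lower at an unadjusted p under 0.05). With the block 5 rose and 0 fell, and with centred libraries 3 rose. Ccl2, a monocyte chemokine gene, was at 121 ± 226 and 147 ± 260 FPKM, where the SD is set by replicate 2 (0.72, blocked adjusted p = 0.0250). Hbegf, a growth factor of the EGF family, went from 6.88 ± 1.55 to 10.5 ± 3.10 FPKM (0.53, blocked adjusted p = 0.00644). Plau, the urokinase protease gene, went from 3.27 ± 1.13 to 5.03 ± 1.27 FPKM (0.51, blocked adjusted p = 0.00710). The median of this list was 0.20.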

How the data were processed

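Per the labels' protocols, stranded libraries were made from polyadenylated RNA, and the submitters' processing notes name TopHat, Cufflinks 2.2.1 and the build mm10. Neither the TopHat version nor how Cufflinks was run is stated in those sources. The authors deposited 1 FPKM value per gene and library. Read totals are not given. Steps between low FPKM values of genes with 1 transcript gave depths of 0.772 (miR-Ctrl) and 0.798 (miR-204) for replicate 2, relative to miR-Ctrl replicate 1, and of 0.929 to 0.962 for the other 5 libraries. The same steps and transcript lengths gave the fragment numbers, which are estimates.

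The members and lists were chosen with earlier results of these data known. Testing covered genes whose mean FPKM reached 1. The test was that of limma 3.58.1 under R 4.3.3, two-sided, applied to log2(FPKM + 1) with the prior variance following the mean, and p-values were adjusted by Benjamini-Hochberg over all 11612 genes, with calls at 0.05. The method was checked on simulated data, with an outcome that is not given here. Pair effects were built into that simulation, so it did not test the pairing. Fold changes on this scale understate changes of low genes. The replicate number was taken as pairing, since deviations from the group means correlated at 0.44, 0.82, 0.76 and 0.62 for replicates 1 to 4 and 8 of 8 libraries correlated best with their own number. This comes from the data, as the labels give only the number. Alternatives were the replicate block, another pseudocount (0.1), no filter, centring, quantile normalization and leaving out libraries. From each pathway list up to 3 genes called in either fit were named, largest change first, or else the most abundant. From the marker lists only part of the genes the rule would name are given. One listed gene, Adgre1, was not matched by symbol. The seed search of 1 member is not reported here.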

Additional observations from a re-analysis of the deposited data

Results flagged for a closer look

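Fosl1 in miR-Ctrl replicate 2 was at 1.74 FPKM, while the other 3 miR-Ctrl libraries were between 0.504 and 0.642 FPKM. Its gap to the nearest of them was 0.888 of the whole range of the group, above Dixon's 95% critical value for a group of this size. Fosl1 in miR-204 replicate 2, at 1.46 FPKM, was also the highest of its group. A total of 20 groups were looked at, in which chance would give about 1 such value, and 1 was found.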

How the results depend on the processing

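The count of genes called higher and lower with miR-204 was 3 and 21 without the block. These counts were 0 and 9 with no filter (1123 and 357 at an unadjusted p under 0.05 by limma), 8 and 55 with centred libraries, and 7 and 66 with quantile normalization. With the replicate block they were 1436 and 329, with the block and a pseudocount of 0.1 1434 and 332, with the block and no filter 542 and 197, with the block and centred libraries 579 and 502, and with the block and quantile normalization (chosen after seeing the data) 555 and 536. With the block and without both libraries of replicate 1, 2, 3 or 4 they were 89 and 83, 2781 and 522, 236 and 149, and 42 and 48. Leaving out 1 library without the block gave 0 to 4 higher and 1 to 16 lower genes by limma (486 to 1503 higher at an unadjusted p under 0.05), and leaving out both libraries of replicate 2 without the block (chosen after seeing the data) gave 2 and 16.

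The count of members called higher was 0 without the block and 2 (Fos and Egr1) in the 5 blocked fits with all 8 libraries; with the block it was 3 without replicate 2, 1 without replicate 3 (Egr1), and 0 without replicate 1 or 4. No member was called lower by limma in any of these fits (0 to 2 at an unadjusted p under 0.05). The sign of a fold change turned in 5 fits without the block, each of 1 library left out: Fosl2 was at 0.27 without miR-Ctrl replicate 2 and at 0.12 without miR-204 replicate 3, Jun at −0.028 without miR-Ctrl replicate 1, and Junb at −0.070 without miR-Ctrl replicate 3 and at −0.16 without miR-204 replicate 2. Over all fits with 1 library left out Fosl2 lay between −0.35 and 0.27, Jun between −0.028 and 0.31 and Junb between −0.16 and 0.52, and none was called there. Fos (0.28 to 0.51), Egr1 (0.31 to 0.59) and Ier2 (0.051 to 0.24) stayed above 0 in all 22 alternatives. Depth limits Fosb, Fosl1 and Egr2, with 31 or 32 fragments in their lowest library.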
